A study of Mus musculus with 16 samples.

Results

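Gene expression shared by 3 drug treatments of a mouse liver cancer was measured as the difference between 12 treated tumours and 4 Placebo tumours. These are all 16 tumours of the series, assigned by their treatment labels. The difference of a gene is the mean of the Anti-PD1, Cabozantinib and Anti-PD1+Cabozantinib group means minus the Placebo mean, and a shared change requires that all 3 treated means lie on the same side of Placebo. The tumours grew in the right flank of male C57BL/6 mice after injection, at the age of 5 weeks, of Hepa1-6 cells, a mouse hepatocellular carcinoma line, in 50% Matrigel. Treatment began when a tumour measured 200 to 300 cubic millimetres, and tumours were collected on day 14. Placebo mice (n = 4 tumours) received hamster IgG at 10 mg/kg. Anti-PD1 mice (n = 3 tumours) received the hamster antibody J43 against PD1 at 10 mg/kg. Both were given by 5 intraperitoneal doses at intervals of 3 days. Cabozantinib mice (n = 5 tumours) received cabozantinib by mouth at 30 mg/kg daily, and the combination group (n = 4 tumours) received both drugs. The labels leave unstated if IgG was also given with cabozantinib alone. All tumours came from 1 cell line placed under the skin, in mice with their own immune system, so a flank tumour of this kind lacks the liver around it.

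PD1 is a receptor that restrains activated T cells, and an antibody that blocks it can release T cells and, through their cytokines, act on macrophages. Cabozantinib inhibits kinases that include the VEGF receptors, MET, AXL and KIT, and so reaches blood vessels, tumour cells, macrophages and mast cells. A change shared by such different agents can be found in the tumour cells, in the host cells among them, or in both, and bulk tissue does not separate these.

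Total RNA of each tumour was hybridised to 1 array, and a gene's level is the log2 signal of its brightest probe set among those with 1 gene symbol, so that a difference of 1 is a doubling. This gave 17097 genes. Alb and Afp, the albumin and alpha-fetoprotein genes of liver tumour cells, were at 13.17 ± 0.032 and 12.66 ± 0.035 in Placebo (log2, SD, n = 4), among the brightest signals, and differed by -0.11 ± 0.049 and -0.065 ± 0.049 (SE) in the treated tumours. Array medians ran from 4.92 to 5.13, and a group mean below 4.92 is not shown to be above background. Skeletal muscle genes were uneven. The mean deviation of the 18 measured muscle genes from their average over the 16 tumours was at most 0.78 in Placebo and reached 4.29 in Anti-PD1 replicate 2. It was 3.93 for Cabozantinib replicate 4 and 5.08 for the combination's replicate 4. Adipocyte genes reached 2.73 in Cabozantinib replicate 2 and 1.83 in combination replicate 1. Array controls also leaned with treatment. The 3′ minus 5′ difference of Gapdh, which reflects RNA breakdown, averaged 0.0044 ± 0.0293 (SD) over the 12 treated tumours and 0.0417 ± 0.0177 (SD) over the 4 Placebo tumours. The two-sided exact permutation test gave p = 0.0346, or 0.136 after adjustment over 5 quality measures, with 0.000549 as the smallest p this design allows. Labelling controls averaged 8.87 ± 0.46 (SD) in treated and 8.41 ± 0.61 (SD) in Placebo tumours (exact permutation p of 0.11, and 0.140 when adjusted). Placebo replicate 2 had the lowest array median, 4.92, and the lowest labelling controls of the 16 arrays, 7.54. The first number in the sample titles, whose meaning is not given, is 11 for Cabozantinib replicates 2 and 3. It is also shared across groups, by Placebo replicate 2 and Anti-PD1 replicate 1 (12), Placebo replicate 4 and Anti-PD1 replicate 3 (17), and Cabozantinib replicate 5 and combination replicate 3 (18). The labels do not say that tumours of a group came from separate mice, and p values measure the spread between these tumours.

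In the treated tumours 30 genes were higher and 82 were lower than in Placebo (limma, adjusted p under 0.05), which is 0.655% of 17097 genes, 0.175% higher and 0.48% lower. Retnla and Arg1, from the list of alternatively activated macrophage genes, feedback regulators of stress signalling such as Dusp1 and Nfkbia, and the glycogen enzyme Gbe1 were among the higher genes. The mast cell protease Mcpt2, the liver-made thrombin inhibitor Serpind1 and the cholesterol enzyme Hsd17b7 were among the lower ones. All 30 higher genes and 79 of the 82 lower genes had the 3 treated means on the same side of Placebo, where 55.1% of all genes did, 23.7% above and 31.3% below. The exceptions were Gpihbp1, Apold1 and Trp53i11, whose Anti-PD1 mean was above Placebo. Genes were called on the mean of these same 3 differences, which favours a common side and large differences. The comparison with all genes therefore does not test sharing. Changes of at least 2-fold were found in 7 higher and 11 lower genes, and the median differences were 0.67 and -0.58 (log2) against -0.012 over all genes.

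**Figure D1:**
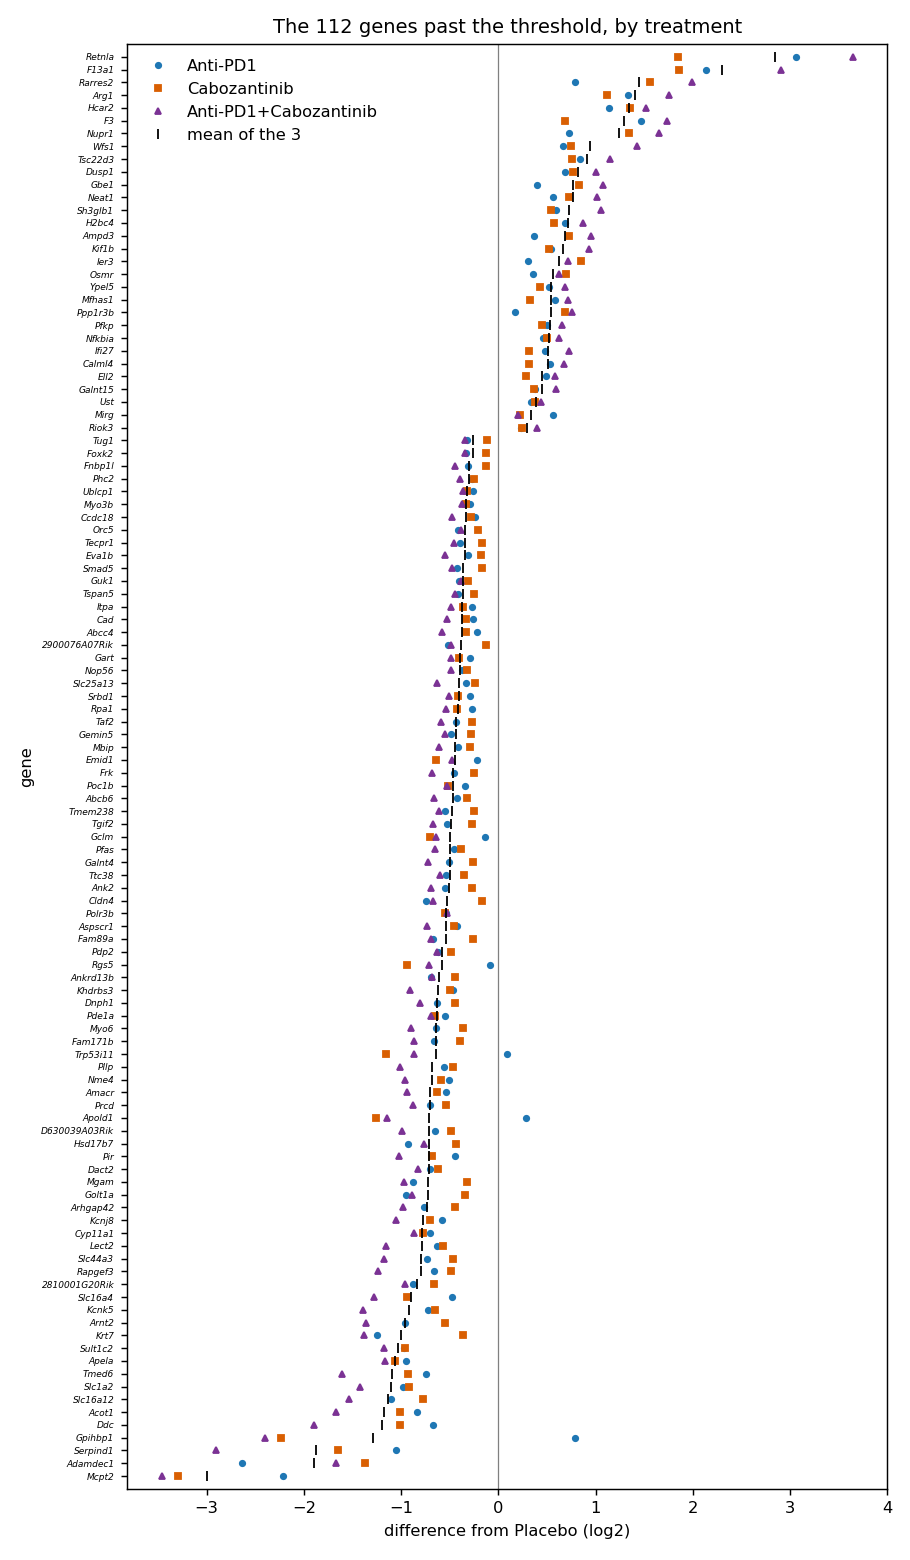
Difference from Placebo (log2, horizontal axis) of the 112 genes past the threshold (vertical axis), in Anti-PD1 (circles), Cabozantinib (squares) and Anti-PD1+Cabozantinib (triangles), with the mean of the 3 as a bar. Retnla and F13a1 lie at the upper end and Mcpt2 and Adamdec1 at the lower end, and Gpihbp1, Apold1 and Trp53i11 have Anti-PD1 on the other side of 0.

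The combination contributed most to these calls. It lay farthest from Placebo in 27 of the 30 higher and 68 of the 82 lower genes, where this was so in 55.4% of all genes with 3 means on 1 side. The 3 single comparisons share the 4 Placebo tumours. Taken alone, Anti-PD1 passed the threshold for 5 genes (0.0292%), Cabozantinib for 44 (0.257%) and the combination for 1771 (10.4%), and of the 112 genes these comparisons passed 1, 15 and 111. The gene passed by Anti-PD1 was Hsd17b7. None of the 112 passed in all 3. Over all genes Esm1 alone passed in all 3, higher in Anti-PD1 and lower in the other groups. With each gene judged by the largest of its 3 unadjusted p values, in 1 direction, 0 genes passed limma's adjusted threshold (0%). At an unadjusted p under 0.05, that test gave 117 higher genes (0.684%) and 310 lower genes (1.81%), of which 26 and 63 were among the 112. The smallest such p was 0.000106, for Sult1c2.

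Most calls stood close to the threshold. An adjusted p of 0.045 or more belonged to 94 of the 112, the smallest was 0.0179, and 1254 genes had an adjusted p under 0.1, 413 higher and 841 lower. Without adjustment, 3914 genes (22.9%) had a p under 0.05. The number of calls depended on the model and on single tumours. It became 2 with the labelling controls as a covariate, 4 with the 12 treated tumours as 1 group, and 17 with the title number as a random block. It became 1, 0 and 2 without Placebo replicate 2, 3 or 4, 7 without Anti-PD1 replicate 1 or 2, 12 without Cabozantinib replicate 5, 4, 7 and 7 without combination replicate 1, 2 or 3, and 72 without Cabozantinib replicate 3. It rose to 477 without Placebo replicate 1, 644 without Anti-PD1 replicate 3 and 453 without Cabozantinib replicate 2. When the combination's difference was left out of the mean, 0 genes passed, with 790 higher and 1435 lower at an unadjusted p under 0.05. The direction moved less than the count. In all 16 fits that left out a tumour, 112 of 112 genes kept their sign. The genes were selected for large differences in these same tumours, so kept signs are no separate check.

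**Figure D2:**
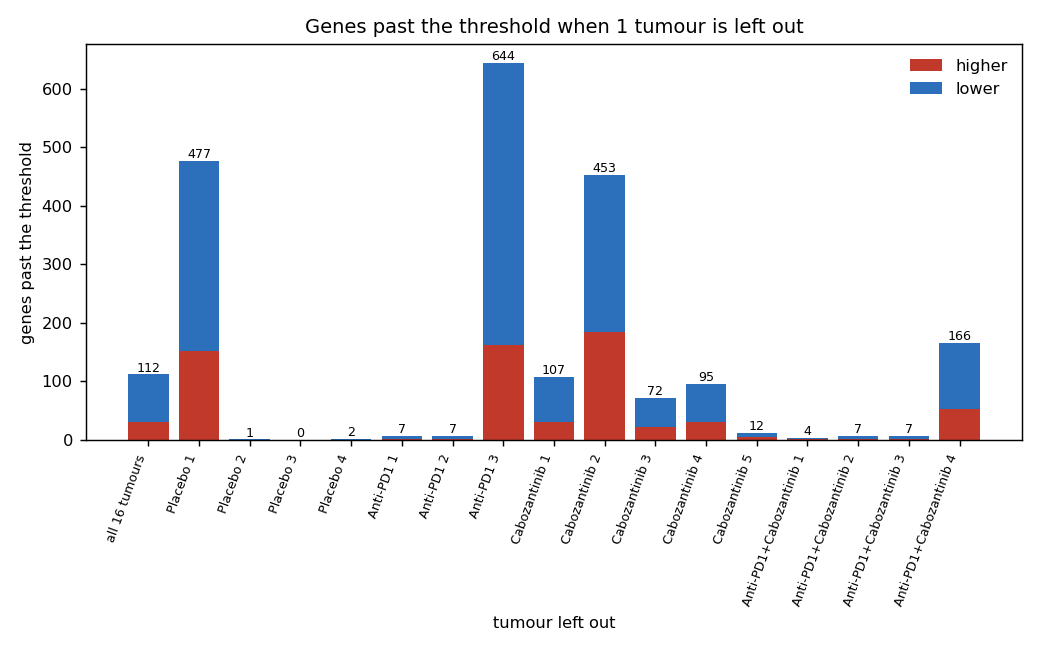
Number of genes past limma's adjusted threshold in treated minus Placebo (vertical axis; higher and lower stacked) with all 16 tumours and with each tumour left out in turn (horizontal axis). The total of 112 became 0 without Placebo replicate 3 and 644 without Anti-PD1 replicate 3.

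Among the higher genes Retnla moved furthest. It encodes a secreted protein of alternatively activated macrophages, the state that macrophages take under IL-4 in tissue repair and in many tumours. Its log2 signals were 8.45, 6.80, 7.81 and 8.96 in the Placebo tumours, 11.29, 11.50 and 10.40 in Anti-PD1, 10.15, 8.46, 11.85, 9.86 and 8.91 in Cabozantinib and 11.69, 11.47, 12.18 and 11.25 in the combination. Every Anti-PD1 and combination tumour exceeded all Placebo tumours, and 2 Cabozantinib tumours, replicates 2 and 5, lay within the Placebo range. Retnla rose by 2.85 ± 0.50 (SE; limma adjusted p = 0.0448), with differences of 3.06 in Anti-PD1, 1.84 in Cabozantinib and 3.65 in the combination. Arg1, also of this state, encodes arginase, which uses up the arginine that T cells need. It was at 11.23, 10.01, 10.41 and 10.43 in the Placebo tumours, 12.02, 11.59 and 11.96 in Anti-PD1, 11.66, 10.41, 12.11, 12.14 and 11.88 in Cabozantinib and 12.42, 12.65, 12.34 and 11.68 in the combination. Cabozantinib replicate 2 alone overlapped Placebo, and Arg1 rose by 1.41 ± 0.29 (limma adjusted p = 0.0485). Its 3 differences were 1.34 in Anti-PD1, 1.12 in Cabozantinib and 1.75 in the combination, and a difference among the treated groups was not detected (limma F test, adjusted p = 0.435). In bulk tumours, more macrophages, more RNA per macrophage and RNA from other cells, tumour cells included, cannot be told apart.

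Of the 13 measured genes of alternatively activated macrophages, 2 passed the threshold, 13 had a positive difference, where 46.7% of all genes did, and 11 had an unadjusted p under 0.05, where 8.46% of all genes did and were higher. The list's median was 1.25, and by group it was 1.19 in Anti-PD1, 0.40 in Cabozantinib and 1.75 in the combination. Folr2, a folate receptor of resident macrophages, differed by 1.80 ± 0.48 (limma adjusted p = 0.0716) and the mannose receptor gene Mrc1 by 1.32 ± 0.38 (adjusted p = 0.0813). In Cabozantinib alone their differences were 0.37 and 0.49. Chil3, a chitinase-like secreted protein, differed by 2.34 ± 0.75 (adjusted p = 0.0988), with 1.42 in Anti-PD1, 2.21 in Cabozantinib and 3.4 in the combination. The mean deviation of the list exceeded every Placebo tumour in 11 of 12 treated tumours, with Cabozantinib replicate 2 at -1.34 as the exception. Without the 3 tumours high in muscle genes, 13 of 13 were positive and 11 had an unadjusted p under 0.05, and without Placebo replicate 2, or with the combination left out of the mean, 6 did.

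Macrophages also make F13a1, the catalytic subunit of coagulation factor XIII, which cross-links fibrin. It was at 7.53, 6.23, 8.68 and 9.07 in the Placebo tumours, 10.13, 10.31 and 9.61 in Anti-PD1, 9.58, 8.63, 10.35, 10.35 and 9.78 in Cabozantinib and 11, 11.12, 10.84 and 10.16 in the combination. All treated tumours but Cabozantinib replicate 2 were above the highest Placebo tumour. F13a1 rose by 2.30 ± 0.43 (limma adjusted p = 0.0485), with 2.14 in Anti-PD1, 1.86 in Cabozantinib and 2.90 in the combination. F3, the tissue factor that starts coagulation, rose by 1.29 ± 0.25 (adjusted p = 0.0485), with 1.47 in Anti-PD1, 0.68 in Cabozantinib and 1.73 in the combination. Rarres2 encodes chemerin, an attractant of macrophages and dendritic cells, and rose by 1.45 ± 0.29 (adjusted p = 0.0485), with 0.79 in Anti-PD1, 1.56 in Cabozantinib and 1.99 in the combination. For Rarres2, 10 of 12 treated tumours exceeded every Placebo tumour.

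Hcar2, the receptor for niacin and ketone bodies, separated the groups fully. Its signals were 7.89, 6.61, 7.27 and 6.70 in the Placebo tumours, 8.44, 8.09 and 8.26 in Anti-PD1, 8.26, 8.14, 8.96, 8.84 and 8.18 in Cabozantinib and 9.15, 8.76, 8.64 and 8.01 in the combination. The lowest treated tumour was above the highest Placebo tumour by 0.12, and the gene rose by 1.34 ± 0.24 (limma adjusted p = 0.0469). Its 3 differences, 1.14 in Anti-PD1, 1.36 in Cabozantinib and 1.52 in the combination, had a limma F test adjusted p of 0.708. Osmr, the receptor subunit for oncostatin M, rose by 0.56 ± 0.11 (adjusted p = 0.0485).

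Dusp1 and Ier3, of the immediate early genes, and Nfkbia were also higher. Immediate early genes are switched on within minutes by growth factors and stress, and several encode proteins that shut the signal off. Dusp1 encodes the phosphatase that inactivates MAP kinases, and was at 11.43, 10.59, 10.36 and 10.94 in the Placebo tumours, 11.62, 11.33 and 11.58 in Anti-PD1, 11.58, 11.46, 11.81, 11.63 and 11.52 in Cabozantinib and 12.03, 11.75, 11.67 and 11.90 in the combination. Anti-PD1 replicate 2 lay within the Placebo range and the other 11 treated tumours above it. Dusp1 rose by 0.82 ± 0.15 (limma adjusted p = 0.0469), with 0.68 in Anti-PD1, 0.77 in Cabozantinib and 1.01 in the combination. Ier3, a survival gene of the early response, rose by 0.62 ± 0.13 (adjusted p = 0.0485). Nfkbia encodes the inhibitor that holds NF-κB in the cytoplasm and is itself a target of NF-κB. It was at 10.42, 10.14, 9.99 and 10.10 in the Placebo tumours, 10.83, 10.60 and 10.44 in Anti-PD1, 10.50, 10.62, 10.63, 10.95 and 10.61 in Cabozantinib and 10.90, 10.84, 10.81 and 10.60 in the combination. All 12 treated tumours were above every Placebo tumour, and Nfkbia rose by 0.52 ± 0.096 (adjusted p = 0.0469).

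Of the 17 measured immediate early genes 2 passed, Dusp1 and Ier3, and 15 had a positive difference, with a median of 0.35. Unadjusted p values under 0.05 belonged to 9, where 22.9% of all genes had one and 46.7% had a positive difference. Fos differed by 1.04 ± 0.27 (limma adjusted p = 0.0661), Jun by 0.55 ± 0.15 (adjusted p = 0.0696) and Klf2, which also keeps endothelium quiescent, by 0.81 ± 0.20 (adjusted p = 0.0604). Tsc22d3, induced by glucocorticoids and not on that list, rose by 0.92 ± 0.19 (adjusted p = 0.0485). Nupr1, a chromatin protein induced by stress, rose by 1.24 ± 0.24 (adjusted p = 0.0485). Wfs1, a protein of the endoplasmic reticulum membrane, rose by 0.95 ± 0.18 (adjusted p = 0.0485), and 12 of 12 treated tumours exceeded every Placebo tumour.

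Kif1b, a kinesin that carries mitochondria and vesicles along microtubules, had the smallest adjusted p of the higher genes. It was at 7.37, 7.33, 7.41 and 7.25 in the Placebo tumours, 7.98, 8.04 and 7.63 in Anti-PD1, 7.74, 7.85, 8.17, 7.79 and 7.73 in Cabozantinib and 8.23, 8.50, 8.25 and 8.13 in the combination. The 4 Placebo tumours lay close together, and every treated tumour was above them. Kif1b rose by 0.67 ± 0.092 (limma adjusted p = 0.0179), with 0.54 in Anti-PD1, 0.52 in Cabozantinib and 0.93 in the combination. The smaller rises of Ust, a sulfotransferase that modifies dermatan and chondroitin sulfate, and of Galnt15, an enzyme family member of mucin-type glycosylation, also left no overlap. Ust rose by 0.39 ± 0.062 (adjusted p = 0.0352) and Galnt15 by 0.45 ± 0.094 (adjusted p = 0.0485). The Placebo mean of Galnt15 was 3.95 ± 0.060 (SD, n = 4), not above background, which limits its difference.

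Glycogen and glycolysis genes were partly shared. Gbe1, the branching enzyme of glycogen, was at 5.99, 5.57, 6.01 and 5.58 in the Placebo tumours, 6.13, 6.46 and 5.97 in Anti-PD1, 6.52, 6.98, 6.57, 6.61 and 6.43 in Cabozantinib and 6.85, 7.09, 6.62 and 6.92 in the combination. All treated tumours but Anti-PD1 replicate 3 exceeded every Placebo tumour, and Anti-PD1 had the lowest mean of the treated groups. Gbe1 rose by 0.77 ± 0.12 (limma adjusted p = 0.0352), with 0.40 in Anti-PD1, 0.83 in Cabozantinib and 1.08 in the combination. Pfkp, the platelet type of phosphofructokinase, rose by 0.53 ± 0.10 (adjusted p = 0.0485), with 0.50 in Anti-PD1, 0.45 in Cabozantinib and 0.65 in the combination. Ppp1r3b, which brings a phosphatase to glycogen and so favours its synthesis, rose by 0.54 ± 0.087 (adjusted p = 0.0353), but its 3 differences of 0.17 in Anti-PD1, 0.69 in Cabozantinib and 0.75 in the combination were unequal (limma F test, adjusted p = 0.0249). The hypoxia and glycolysis list holds 21 measured genes, of which 2 passed, 19 were positive and 11 had an unadjusted p under 0.05. Over all genes 0.655% passed, 46.7% were positive and 22.9% had such a p. By group its median was -0.072 in Anti-PD1, 0.44 in Cabozantinib and 0.30 in the combination, and 10 of the 21 differed among the treated groups (F test, adjusted p under 0.05), where 3% of all genes did. Slc2a1, the glucose transporter GLUT1, differed by -0.060 in Anti-PD1, 0.40 in Cabozantinib and 0.20 in the combination (F test, adjusted p = 0.0341).

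Further higher genes were Neat1, the long noncoding RNA of paraspeckles, at 0.77 ± 0.16 (limma adjusted p = 0.0485), Ampd3, an AMP deaminase, at 0.68 ± 0.15 (adjusted p = 0.0485), and Sh3glb1, a membrane-bending protein of autophagy, at 0.73 ± 0.15 (adjusted p = 0.0485). Ypel5 rose by 0.54 ± 0.10 with 12 of 12 treated tumours above Placebo. H2bc4, a histone H2B gene, rose by 0.71 ± 0.12 (adjusted p = 0.0415). H2B genes resemble each other, and signal from relatives in its probe set was not tested.

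**Figure D3:**
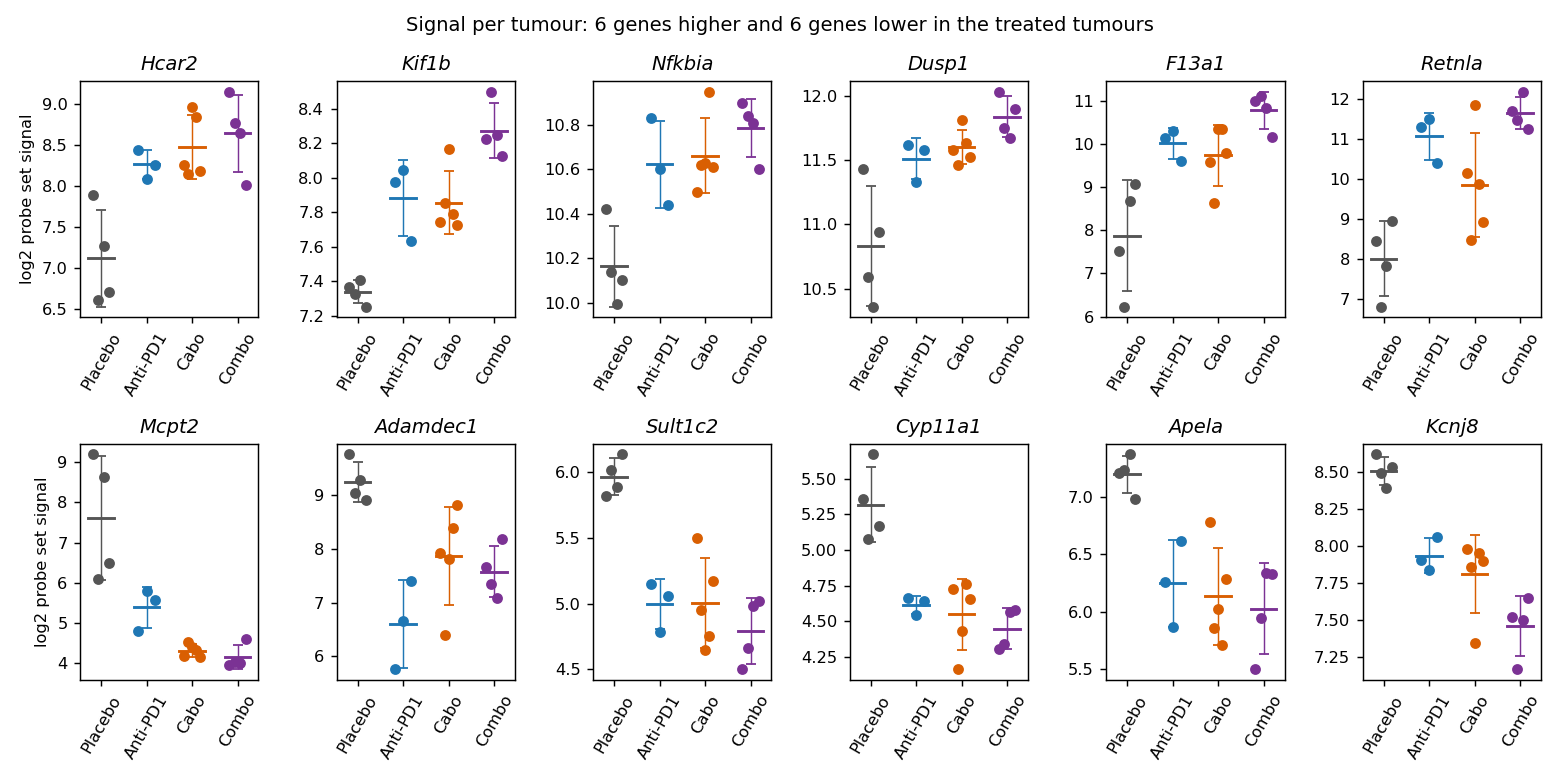
Log2 probe set signal per tumour (vertical axes) of 6 higher genes and 6 lower genes in Placebo, Anti-PD1, Cabozantinib (Cabo) and Anti-PD1+Cabozantinib (Combo); each point is a tumour, wide lines are group means and error bars are SD. Hcar2, Kif1b and Nfkbia have all 12 treated tumours above Placebo, and Mcpt2, Adamdec1, Sult1c2, Cyp11a1, Apela and Kcnj8 have all 12 below.

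The largest fall was that of Mcpt2, a chymase-like protease of mucosal mast cells. Its signals were 9.19, 6.08, 8.64 and 6.49 in the Placebo tumours, 4.80, 5.79 and 5.56 in Anti-PD1, 4.16, 4.51, 4.41, 4.32 and 4.14 in Cabozantinib and 3.94, 4.03, 4.0 and 4.59 in the combination. The Placebo tumours were themselves widely spread, and every treated tumour lay below the lowest of them. Mcpt2 fell by 2.99 ± 0.43 (limma adjusted p = 0.0215), with -2.22 in Anti-PD1, -3.30 in Cabozantinib and -3.46 in the combination. The Cabozantinib and combination means were below 4.92, so background limits the size of the fall. Mcpt1, a close relative, differed by -1.43 ± 0.37 (adjusted p = 0.0662), with all 3 treated means below 4.92. Other mast cell genes did not follow in all groups. Cpa3, the carboxypeptidase of mast cell granules, differed from Placebo by 0.37 in Anti-PD1, -3.4 in Cabozantinib and -2.06 in the combination, unequal among the treated groups (F test, adjusted p = 0.0327), and the chymase Mcpt4 by 0.18 in Anti-PD1, -2.78 in Cabozantinib and -2.01 in the combination. The Cabozantinib mean of Cpa3 was also below 4.92. Of the 16 mast cell and eosinophil genes 1 passed and 12 had a negative difference, where 53.3% of all genes did. For 10 of them the mean over the 16 tumours was below 4.92. The list's median was 0.013 in Anti-PD1, -0.58 in Cabozantinib and -0.61 in the combination.

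Adamdec1, a secreted metalloprotease of macrophages and of the gut stroma, was at 9.75, 9.03, 9.28 and 8.90 in the Placebo tumours, 5.76, 6.65 and 7.40 in Anti-PD1, 7.92, 6.40, 7.81, 8.38 and 8.81 in Cabozantinib and 7.66, 7.34, 7.09 and 8.19 in the combination. No treated tumour reached the lowest Placebo tumour, and the Anti-PD1 tumours were lowest on average. Adamdec1 fell by 1.90 ± 0.37 (limma adjusted p = 0.0485), with -2.64 in Anti-PD1, -1.38 in Cabozantinib and -1.67 in the combination.

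Several lower genes belong to liver or epithelial cells. Serpind1 encodes heparin cofactor II, a thrombin inhibitor made in liver, and was at 7.22, 8.82, 8.55 and 9.11 in the Placebo tumours, 7.36, 6.71 and 8.06 in Anti-PD1, 7.15, 7.64, 5.93, 6.43 and 6.70 in Cabozantinib and 4.94, 5.06, 5.60 and 6.47 in the combination. Placebo replicate 1 was the lowest of its group and overlapped 3 treated tumours. Serpind1 fell by 1.87 ± 0.38 (limma adjusted p = 0.0485), with -1.05 in Anti-PD1, -1.65 in Cabozantinib and -2.91 in the combination. Lect2, a protein that liver secretes into blood, fell by 0.79 ± 0.14 (adjusted p = 0.0469). Ddc, which makes dopamine and serotonin from their amino acid precursors, fell by 1.19 ± 0.24 (adjusted p = 0.0485), and the acyl-CoA thioesterase gene Acot1 by 1.17 ± 0.22 (adjusted p = 0.0485). Amacr, a racemase needed to break down branched fatty acids and bile acid precursors, fell by 0.70 ± 0.12 (adjusted p = 0.037). Krt7, a keratin of bile duct and other simple epithelia, fell by 1.0 ± 0.21 (adjusted p = 0.0485), with -1.24 in Anti-PD1, -0.36 in Cabozantinib and -1.39 in the combination. These falls did not extend to the whole of the 21 hepatocyte and fetal liver genes, of which 0 passed by limma, 6 had an unadjusted p under 0.05, and the median was -0.10. Over all genes 22.9% had such a p. By group the list's median was -0.20 in Anti-PD1, 0.15 in Cabozantinib and -0.28 in the combination. Of its members 14 were negative and 7 positive, where 53.3% of all genes were negative. Foxa1, a pioneer factor of liver and on that list, differed by -0.75 ± 0.18 (adjusted p = 0.0597).

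Sult1c2, a sulfotransferase, had the smallest value of all genes for the largest of the 3 p values. It was at 5.82, 6.02, 5.89 and 6.14 in the Placebo tumours, 5.15, 4.79 and 5.06 in Anti-PD1, 5.50, 4.95, 4.65, 4.75 and 5.17 in Cabozantinib and 4.50, 4.66, 4.98 and 5.02 in the combination. The gap between the groups was 0.32, and no treated tumour reached 5.82, the lowest Placebo value. Sult1c2 fell by 1.04 ± 0.14 (limma adjusted p = 0.0179), with -0.97 in Anti-PD1, -0.96 in Cabozantinib and -1.18 in the combination. Its combination mean of 4.79 was below 4.92, so background limits the size of the fall there. Some other lowly expressed genes were also lower. Cyp11a1, which cuts the side chain of cholesterol to start steroid synthesis, was at 5.36, 5.08, 5.67 and 5.17 in the Placebo tumours, 4.66, 4.54 and 4.64 in Anti-PD1, 4.73, 4.16, 4.43, 4.76 and 4.66 in Cabozantinib and 4.31, 4.34, 4.56 and 4.58 in the combination. It fell by 0.78 ± 0.12 (adjusted p = 0.0226) to group means below 4.92 in all 3 treated groups, so its level there is not shown to be above background. Apela, a peptide ligand of the apelin receptor, fell by 1.06 ± 0.19 (adjusted p = 0.0469), with -0.95 in Anti-PD1, -1.06 in Cabozantinib and -1.17 in the combination, and 12 of 12 treated tumours lay below Placebo.

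Slc16a12, a transporter of creatine, was at 8.69, 8.74, 8.95 and 8.79 in the Placebo tumours, 7.77, 7.40 and 7.90 in Anti-PD1, 8.28, 8.25, 7.15, 7.94 and 8.50 in Cabozantinib and 7.09, 7.16, 7.39 and 7.40 in the combination. All treated tumours were below every Placebo tumour, and the combination had the lowest mean. Slc16a12 fell by 1.14 ± 0.18 (limma adjusted p = 0.0352). The glutamate transporter gene Slc1a2 fell by 1.11 ± 0.22 (adjusted p = 0.0485), the monocarboxylate transporter family gene Slc16a4 by 0.90 ± 0.19 (adjusted p = 0.0485) and the potassium leak channel gene Kcnk5 by 0.92 ± 0.17 (adjusted p = 0.0483). Arnt2, a partner of bHLH-PAS transcription factors, fell by 0.95 ± 0.20 (adjusted p = 0.0485). Tmed6, a cargo adaptor of the secretory pathway, fell by 1.09 ± 0.23, and Golt1a, a Golgi transport protein, by 0.73 ± 0.13 (adjusted p = 0.0448). The uncharacterised transcript 2810001G20Rik fell by 0.83 ± 0.16 (adjusted p = 0.0485).

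Kcnj8, the pore subunit of a potassium channel that marks pericytes, was at 8.62, 8.49, 8.39 and 8.54 in the Placebo tumours, 7.90, 7.84 and 8.07 in Anti-PD1, 7.98, 7.86, 7.35, 7.95 and 7.90 in Cabozantinib and 7.52, 7.17, 7.50 and 7.65 in the combination. The lowest Placebo tumour exceeded the highest treated tumour by 0.33. Kcnj8 fell by 0.78 ± 0.11 (limma adjusted p = 0.0179), with -0.58 in Anti-PD1, -0.70 in Cabozantinib and -1.05 in the combination. Rgs5, another pericyte gene, fell by 0.58 ± 0.12 (adjusted p = 0.0485), but hardly in Anti-PD1, with -0.081 in Anti-PD1, -0.94 in Cabozantinib and -0.72 in the combination (F test among the treated groups, adjusted p = 0.0223). Of the 10 pericyte and smooth muscle genes these 2 passed, 4 were positive and 6 negative. Over all genes 0.655% passed and 53.3% were negative, so the list as a whole was near the negative share.

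Enzymes of cholesterol synthesis had mostly negative differences. Hsd17b7, which reduces a sterol ketone on the way to cholesterol, was at 7.01, 6.94, 6.91 and 6.68 in the Placebo tumours, 5.94, 6.02 and 5.91 in Anti-PD1, 6.82, 6.49, 6.24, 6.33 and 6.36 in Cabozantinib and 6.13, 6.24, 6.15 and 5.95 in the combination. Cabozantinib replicate 1 overlapped Placebo. Hsd17b7 fell by 0.71 ± 0.093 (limma adjusted p = 0.0179), with -0.93 in Anti-PD1, -0.44 in Cabozantinib and -0.77 in the combination. Of the 17 cholesterol and fatty acid synthesis genes 1 passed, 15 had a negative difference, where 53.3% of all genes did, and 11 had an unadjusted p under 0.05, where 14.4% of all genes did and were lower. Lss, lanosterol synthase, differed by -0.72 ± 0.16 (adjusted p = 0.0523), with -0.92 in Anti-PD1, -0.34 in Cabozantinib and -0.89 in the combination. Sqle, squalene epoxidase, differed by -0.42 ± 0.12 (adjusted p = 0.076). The list's medians were -0.56 in Anti-PD1, -0.10 in Cabozantinib and -0.46 in the combination, and no member passed the F test among the treated groups. Cabozantinib replicate 2, the tumour highest in adipocyte genes, had the highest mean deviation of the list, 0.82.

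Other falls were smaller. Polr3b, a subunit of RNA polymerase III, had similar differences, -0.54 in Anti-PD1, -0.55 in Cabozantinib and -0.53 in the combination, and fell by 0.54 ± 0.11 (limma adjusted p = 0.0485) with 12 of 12 treated tumours below Placebo. Guk1, guanylate kinase, fell by 0.37 ± 0.067 (adjusted p = 0.0469), Aspscr1, which tethers glucose transporter vesicles, by 0.54 ± 0.11 (adjusted p = 0.0485), and Ankrd13b by 0.61 ± 0.11 (adjusted p = 0.0448). Chosen after their values were seen, Cad, which starts pyrimidine synthesis, fell by 0.38 ± 0.074, and Pfas and Gart, enzymes of purine synthesis, by 0.50 ± 0.11 and 0.40 ± 0.083 (adjusted p = 0.0485 for each). Rpa1, which coats single-stranded DNA, fell by 0.41 ± 0.085, and Orc5, part of the complex that marks replication origins, by 0.34 ± 0.071 (both adjusted p = 0.0485).

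In 78 genes the 12 treated and 4 Placebo tumours did not overlap at all, 19 above (0.111%) and 59 below (0.345%). Of these, 8 and 23 were among the 112 called genes. Nrep, a neuronal regeneration protein, at 1.04 ± 0.28 (limma adjusted p = 0.0739), and Rhov, a small GTPase, separated fully without passing, Rhov at 0.49 ± 0.13 (adjusted p = 0.066). The Placebo and Anti-PD1 means of Rhov, 4.47 and 4.82, were below 4.92, so background limits its difference.

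Other probe sets gave a partial check. For 30 called genes, 45 further probe sets were above the highest array median, and 42 of them had the sign of the probe set used. Those of Foxk2, Gemin5 and Tug1 disagreed in part, and their falls of 0.26, 0.43 and 0.26 are uncertain.

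Genes of DNA replication and mitosis had negative differences throughout, though no member passed singly. Replication genes encode the helicase, its loaders and the polymerases that copy DNA. Mitotic genes encode the kinases and motors that condense, align and part the chromosomes. Both sets are transcribed mainly in cycling cells. All 24 measured replication genes had a negative difference, with a median of -0.34, and 21 had an unadjusted p under 0.05. All 26 mitosis genes were negative too, with a median of -0.36, and 24 had an unadjusted p under 0.05. Over all genes 53.3% were negative, and 14.4% were lower with such a p. By limma 0 members of either list had an adjusted p under 0.05, and 12 of the replication and 4 of the mitosis genes had one under 0.1. The list medians were -0.17 and -0.22 in Anti-PD1, -0.42 and -0.36 in Cabozantinib, and -0.51 and -0.51 in the combination. All 24 and all 26 stayed negative in each of the 30 alternative settings tried. Those settings refit the same tumours, and the lists were chosen with earlier results of these data known, so kept signs are no separate check. The count of mitosis genes with an unadjusted p under 0.05 was 7 without Placebo replicate 3, 10 with the combination left out of the mean, and 14 without the 3 tumours high in muscle genes.

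Mad2l1, a spindle checkpoint protein, had the smallest p of the mitosis list and was at 10.31, 10.46, 10.61 and 10.51 in the Placebo tumours, 10.14, 9.88 and 10.46 in Anti-PD1, 10.22, 10.06, 9.93, 10.02 and 10.23 in Cabozantinib and 10.17, 9.80, 9.93 and 9.80 in the combination. Anti-PD1 replicate 3 was the only treated tumour within the Placebo range. Mad2l1 differed by -0.41 ± 0.10 (limma adjusted p = 0.0606), with -0.31 in Anti-PD1, -0.38 in Cabozantinib and -0.55 in the combination. Kif20a, a kinesin of cytokinesis, differed by -0.64 ± 0.16 (adjusted p = 0.0661). Cdk1, the kinase that drives entry into mitosis, differed by -0.38 ± 0.099 (adjusted p = 0.0662), and its cyclin partner Ccnb2 by -0.46 ± 0.15 (adjusted p = 0.101). Mki67, the common proliferation marker, differed by -0.23 ± 0.10 (adjusted p = 0.193). Of the replication genes, the helicase subunit gene Mcm4 was at 9.83, 9.91, 10.02 and 9.91 in the Placebo tumours, 9.72, 9.65 and 9.94 in Anti-PD1, 9.48, 9.57, 9.48, 9.65 and 9.65 in Cabozantinib and 9.69, 9.34, 9.58 and 9.36 in the combination. Its groups overlapped only through Anti-PD1 replicate 3. Mcm4 differed by -0.31 ± 0.073 (limma adjusted p = 0.0597). Prim1, the primase, differed by -0.47 ± 0.12 (adjusted p = 0.0626), Cdt1, which loads the helicase, by -0.29 ± 0.073 (adjusted p = 0.0642), Rfc3, part of the clamp loader, by -0.50 ± 0.14 (adjusted p = 0.0772) and Mcm5 by -0.48 ± 0.14 (adjusted p = 0.0848). Across tumours the mean deviation of the replication list was below every Placebo tumour in 11 of 12 treated tumours, and that of the mitosis list in 10 of 12. Anti-PD1 replicate 3, at 0.41 and 0.36, was within the Placebo range for both.

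**Figure D4:**
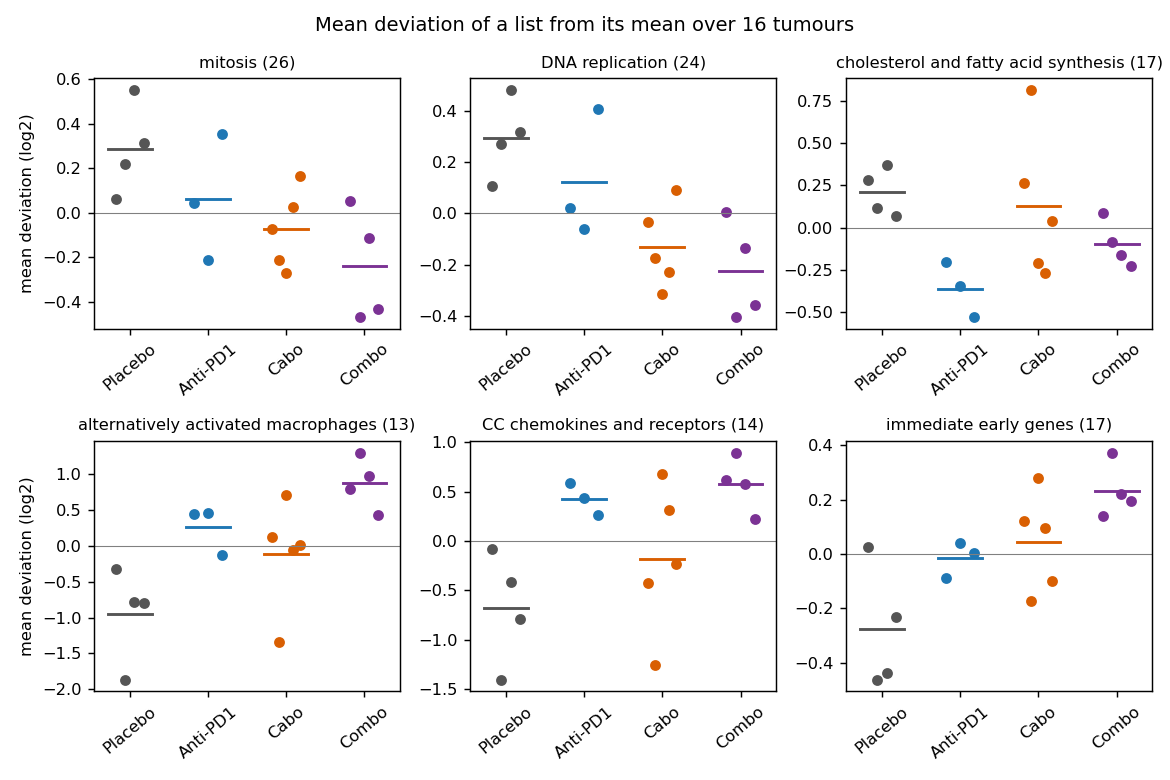
Mean deviation of a list's members from their average over 16 tumours (log2, vertical axes) per tumour in Placebo, Anti-PD1, Cabozantinib (Cabo) and Anti-PD1+Cabozantinib (Combo) for 6 gene lists, with the number of members in brackets; wide lines are group means. For DNA replication 11 of 12 treated tumours lie below every Placebo tumour, and for alternatively activated macrophages 11 of 12 lie above.

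Promoters are shown here because the members of these lists had differences of 1 sign, and cell cycle genes are known to carry common elements near their start sites. The CHR element, TTTGAA, and CCAAT boxes are features of genes expressed late in the cycle, E2F sites of genes expressed at its start, and the cAMP response element, TGACGTCA, of many early response genes. RefSeq windows of 300 bases on GRCm38.p6, from 250 bases before to 50 after a start site, were matched by symbol for 21 of 26 mitosis genes (22 windows), 20 of 24 replication genes (22 windows) and 93 of 112 called genes. Each motif was searched on both strands, E2F as TTTNGCGC. Capitals mark every match to any of these motifs, in the letters of the strand shown, so that a CCAAT box on the other strand reads ATTGG and a CHR reads TTCAAA. The matches printed do not overlap. Cdk1 and Ccnb2 were picked for holding both CHR and CCAAT matches, and Cdt1 and Rfc3 for holding an E2F match. Among such members, eligible ones with the smallest p were taken. Mad2l1 was picked by its p alone, and Dusp1 was added by choice. The matches of the picked genes are therefore not results. Cdk1 (chr10:69352863-69353162, minus strand) and Ccnb2 (chr9:70421505-70421804, minus strand) hold CHR and CCAAT matches, and Mad2l1 (chr6:66534971-66535270, plus strand), which had the smallest p of its list, holds none. Cdt1 (chr8:122567765-122568064, plus strand) and Rfc3 (chr5:151651159-151651458, minus strand) hold an E2F match, and Dusp1 (chr17:26508423-26508722, minus strand), a gene that rose, holds a cAMP response element. All are written 5′ to 3′ in the direction of transcription.
Cdk1: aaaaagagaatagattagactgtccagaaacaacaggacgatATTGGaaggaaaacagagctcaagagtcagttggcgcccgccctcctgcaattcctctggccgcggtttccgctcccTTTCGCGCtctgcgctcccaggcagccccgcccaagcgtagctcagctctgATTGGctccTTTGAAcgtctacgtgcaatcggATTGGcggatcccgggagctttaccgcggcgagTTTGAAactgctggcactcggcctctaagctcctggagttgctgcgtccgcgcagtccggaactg
Ccnb2: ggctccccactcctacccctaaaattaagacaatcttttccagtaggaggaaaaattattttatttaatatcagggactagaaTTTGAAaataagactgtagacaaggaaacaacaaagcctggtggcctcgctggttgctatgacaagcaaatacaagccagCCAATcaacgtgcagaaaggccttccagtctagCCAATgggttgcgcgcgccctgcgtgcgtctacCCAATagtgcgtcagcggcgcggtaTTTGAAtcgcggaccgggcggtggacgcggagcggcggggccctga
Mad2l1: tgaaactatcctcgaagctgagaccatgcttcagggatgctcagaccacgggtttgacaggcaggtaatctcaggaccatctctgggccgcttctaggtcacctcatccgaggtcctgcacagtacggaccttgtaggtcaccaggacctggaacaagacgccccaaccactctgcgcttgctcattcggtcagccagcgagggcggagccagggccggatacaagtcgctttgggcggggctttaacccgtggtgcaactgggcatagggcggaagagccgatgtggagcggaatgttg
Cdt1: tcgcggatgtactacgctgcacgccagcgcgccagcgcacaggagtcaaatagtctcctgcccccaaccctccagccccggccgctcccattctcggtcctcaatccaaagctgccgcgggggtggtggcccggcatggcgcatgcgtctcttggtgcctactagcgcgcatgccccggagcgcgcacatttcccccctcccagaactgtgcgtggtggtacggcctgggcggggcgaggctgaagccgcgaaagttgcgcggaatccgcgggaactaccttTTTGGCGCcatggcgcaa
Rfc3: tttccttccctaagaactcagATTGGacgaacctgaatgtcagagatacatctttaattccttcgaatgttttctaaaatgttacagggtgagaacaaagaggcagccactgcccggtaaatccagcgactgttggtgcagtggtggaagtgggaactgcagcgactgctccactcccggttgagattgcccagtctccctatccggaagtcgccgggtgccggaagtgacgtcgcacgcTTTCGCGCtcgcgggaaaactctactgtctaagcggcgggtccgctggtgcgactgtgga
Dusp1: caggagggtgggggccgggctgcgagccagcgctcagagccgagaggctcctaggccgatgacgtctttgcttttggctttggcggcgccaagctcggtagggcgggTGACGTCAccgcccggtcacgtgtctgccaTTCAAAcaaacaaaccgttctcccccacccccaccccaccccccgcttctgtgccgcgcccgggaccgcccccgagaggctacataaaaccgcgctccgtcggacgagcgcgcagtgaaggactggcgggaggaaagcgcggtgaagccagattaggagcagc

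The CHR letters were found in 18 of 22 mitosis windows, 81.8%, and in 17.9% of all 32851 windows. The CCAAT letters were in 81.8% of mitosis windows against 37.4% of all windows, and both together in 72.7% against 6.95%. The E2F letters were in 7 of 22 replication windows, 31.8%, and in 1.38% of all windows. In windows of the called genes the CHR was in 10.3% of 29 windows of higher genes and 13.2% of 91 windows of lower genes, and E2F in 0% and 2.2%. The cAMP response element was in 2 of 29 windows of higher genes, 6.9%, and in 1.79% of all windows. These are descriptions of letters in a window and say nothing of binding in these tumours.

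Other host cell lists differed in sign. Over all genes 53.3% were negative, 46.7% were positive and 22.9% had an unadjusted p under 0.05. Endothelial genes (14 of 25 negative), keratinocyte genes (7 of 11) and red cell and platelet genes (6 of 11) were near that negative share. Every group mean was below 4.92 for 9 of the 11 keratinocyte genes and 6 of the 11 red cell and platelet genes. Chemokine, macrophage, neutrophil, T cell and fibroblast genes were mostly positive. Of the 14 CC chemokines and receptors, which attract monocytes, 0 passed by limma, 13 were positive and 11 had an unadjusted p under 0.05. The list's median was 0.78, and 1.03, 0.49 and 1.04 in Anti-PD1, Cabozantinib and the combination. Ccl9 differed by 1.51 ± 0.36 (adjusted p = 0.0597), Ccl12 by 1.13 ± 0.27 (adjusted p = 0.0588) and the eosinophil attractant Ccl11 by 2.31 ± 0.64 (adjusted p = 0.076), with 1.86 in Anti-PD1, 1.79 in Cabozantinib and 3.27 in the combination. All 19 lysosome and lipid handling genes were positive, 15 with an unadjusted p under 0.05, 8 without Placebo replicate 2, and 0 past limma's adjusted threshold. The median was 0.44. The protease gene Ctsl differed by 0.28 ± 0.070 (limma adjusted p = 0.0625) and Lgals3, galectin-3, by 0.51 ± 0.13 (adjusted p = 0.0649). Monocyte and macrophage genes were positive in 17 of 17, but their median was 1.15 in Anti-PD1, 0.0047 in Cabozantinib and 1.16 in the combination, against a list median of 0.62, and 1 of the 17 passed the F test among the treated groups. Trem2, a receptor of lipid-handling macrophages, differed by 2.35 in Anti-PD1, 0.84 in Cabozantinib and 3.01 in the combination.

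Neutrophil genes had similar medians in the 3 treated groups, 0.44 in Anti-PD1, 0.47 in Cabozantinib and 0.40 in the combination. Of 21 genes 17 were positive and 8 had an unadjusted p under 0.05, 7 of them higher, against 46.7% and 22.9% of all genes. By limma 0 passed. All 3 treated means lay on 1 side of Placebo for 13 of the 21, where 55.1% of all genes had this. The list's mean deviation exceeded every Placebo tumour in 7 of 12 treated tumours. Within Cabozantinib it was highest in replicate 4, at 1.07, and the group mean was 0.032. S100a9, a calprotectin subunit abundant in neutrophils, was at 7.40, 7.18, 8.54 and 7.25 in the Placebo tumours, 10.06, 9.29 and 8.29 in Anti-PD1, 9.72, 9.70, 8.70, 11.79 and 9.35 in Cabozantinib and 10.42, 9.54, 9.54 and 8.57 in the combination. All treated tumours but Anti-PD1 replicate 3 exceeded Placebo replicate 3, the highest of its group. S100a9 differed by 1.93 ± 0.48 (adjusted p = 0.0633), with 1.6 in Anti-PD1, 2.26 in Cabozantinib and 1.92 in the combination, and its partner S100a8 by 1.77 ± 0.45 (adjusted p = 0.0659). Clec4d, a lectin receptor of myeloid cells, differed by 2.24 ± 0.50 (adjusted p = 0.0541), Csf3r, the receptor for G-CSF, by 0.94 ± 0.23 (adjusted p = 0.0625) and the neutrophil attractant Cxcl2 by 1.57 ± 0.46 (adjusted p = 0.0842), with 1.53 in Anti-PD1, 1.56 in Cabozantinib and 1.61 in the combination.

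T cell genes were positive in 12 of 12, against 46.7% of all genes, with a median of 0.42. By limma 0 passed, and 1 had an unadjusted p under 0.05, against 22.9% of all genes. The list's median was 0.71 in Anti-PD1, 0.0086 in Cabozantinib and 0.55 in the combination. Of the 12 genes 8 had all 3 treated means on 1 side of Placebo, where 55.1% of all genes did. Cd8a, of killer T cells, differed by 0.39 ± 0.25 (limma adjusted p = 0.364), and its Cabozantinib mean of 8.33 ± 0.67 (SD, n = 5) equalled the Placebo mean of 8.33 ± 0.30 (SD, n = 4) to this precision. Gzmb, their granzyme B, differed by 0.54 ± 0.39 (adjusted p = 0.429), Ifng by 0.43 ± 0.34 (adjusted p = 0.477) and Pdcd1, which encodes PD1, by 0.29 ± 0.30 (adjusted p = 0.609), with 0.58 in Anti-PD1, -0.14 in Cabozantinib and 0.41 in the combination. Cd274, which encodes the PD1 ligand, differed by 0.64 ± 0.19 (adjusted p = 0.0809), with 0.40 in Anti-PD1, 0.68 in Cabozantinib and 0.84 in the combination. Tnfrsf9, the costimulatory receptor 4-1BB, differed by 1.20 ± 0.30 (adjusted p = 0.0649). Fibroblast and matrix genes were positive in 19 of 19, with a median of 0.77 and 0 past the threshold, and 7 had an unadjusted p under 0.05. By group the median was 1.13 in Anti-PD1, 0.14 in Cabozantinib and 0.98 in the combination. Skeletal muscle genes had the highest median of the 32 lists, 1.45, with 17 of 18 positive and 0 at an unadjusted p under 0.05, and 3 treated tumours, 1 in each group, were far above the others. Whether tissue around the tumour entered other lists was not tested.

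**Figure D5:**
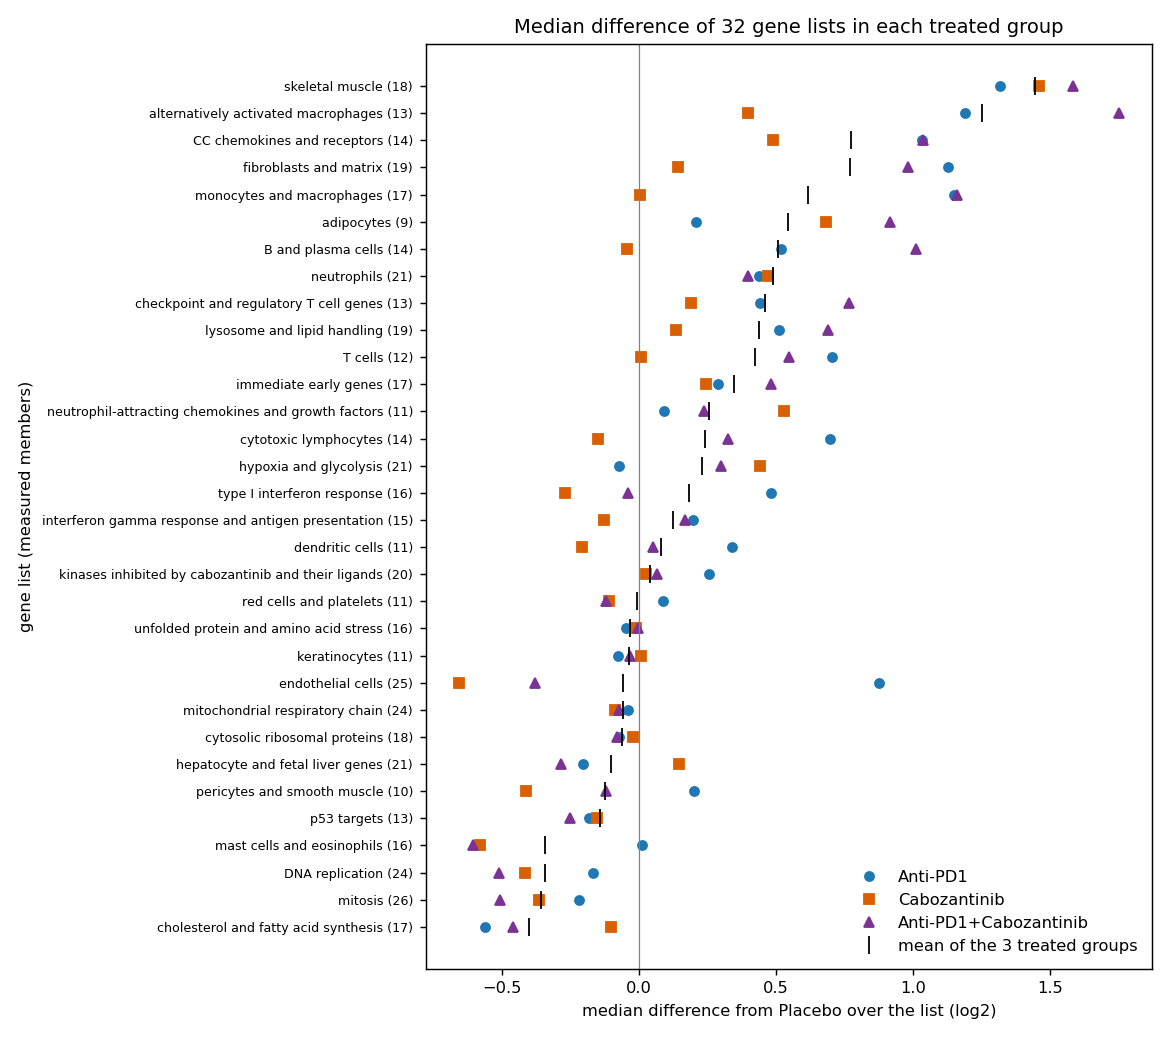
Median difference from Placebo over the measured members of 32 gene lists (log2, horizontal axis; lists with their number of members on the vertical axis) in Anti-PD1 (circles), Cabozantinib (squares), Anti-PD1+Cabozantinib (triangles) and their mean (bar). DNA replication and mitosis lie below 0 in all 3 groups, CC chemokines lie above 0 in all 3, and endothelial cells lie at 0.88 in Anti-PD1 and -0.66 in Cabozantinib.

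The treated groups also differed from each other. A limma F test among the 3 groups passed for 513 genes (3%), and for 10 of the 112 called genes, Ppp1r3b among the higher and 9 among the lower. Gpihbp1, which holds lipoprotein lipase on capillary walls, was at 6.98, 6.74, 7.72 and 7.34 in the Placebo tumours, 7.84, 8.22 and 7.88 in Anti-PD1, 4.84, 5.88, 4.35, 4.65 and 5.06 in Cabozantinib and 4.75, 4.36, 4.95 and 5.11 in the combination. The Anti-PD1 tumours were above all Placebo tumours and the tumours given cabozantinib below all of them. Its mean difference of -1.29 ± 0.23 passed (adjusted p = 0.0469), but the 3 differences were 0.79 in Anti-PD1, -2.24 in Cabozantinib and -2.40 in the combination (F test, adjusted p = 0.000212), so it was not a shared change. Apold1, an endothelial early response gene, had 0.29 in Anti-PD1, -1.26 in Cabozantinib and -1.15 in the combination (F test, adjusted p = 0.000665), and Trp53i11 had 0.086 in Anti-PD1, -1.16 in Cabozantinib and -0.86 in the combination (adjusted p = 0.00357). Of the 25 endothelial genes 22 differed among the treated groups by this test. Esm1, a marker of sprouting tip cells, differed from Placebo by 1.53 in Anti-PD1, -2.06 in Cabozantinib and -1.92 in the combination, and Kdr, the main VEGF receptor of endothelium, by 0.88 in Anti-PD1, -1.09 in Cabozantinib and -1.13 in the combination (F test, adjusted p = 4.83e-06 and 0.0106). The Esm1 means in Cabozantinib and the combination, the combination mean of Gpihbp1 and the Cabozantinib mean of Trp53i11 were below 4.92, so background limits the size of these falls. Kit, a target of cabozantinib, differed by 0.53 in Anti-PD1, -0.84 in Cabozantinib and -0.72 in the combination (adjusted p = 0.0114). Among genes on 1 side of Placebo, Cldn4, a tight junction protein, fell by 0.53 ± 0.11 and was least changed in Cabozantinib (-0.75 in Anti-PD1, -0.17 in Cabozantinib and -0.67 in the combination; F test, adjusted p = 0.0396). Gclm, a subunit of the enzyme that starts glutathione synthesis, fell by 0.49 ± 0.099 and was least changed in Anti-PD1 (-0.14 in Anti-PD1, -0.70 in Cabozantinib and -0.64 in the combination; adjusted p = 0.0449). The transcript 2900076A07Rik fell by 0.38 ± 0.074, with -0.52 in Anti-PD1, -0.13 in Cabozantinib and -0.49 in the combination (adjusted p = 0.0357).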

How the data were processed

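RNA of 16 Hepa1-6 tumours was measured on 16 arrays. The authors deposited log2 values per probe set, made with RMA in affy 1.62.0 per the submitters' processing notes, and they were used as given. RMA sets a floor near background, so differences of dim genes are compressed. Of 45141 probe sets, 28898 had 1 gene symbol, and the probe set with the highest mean was kept for each of 17097 genes. Group means were fitted with limma 3.58.1 in R 4.3.3 (lmFit, eBayes), with Benjamini-Hochberg adjustment over all genes and a threshold of 0.05. An F test compared the 3 treated groups, and quality measures were compared by a two-sided exact permutation test. The scripts were tested on simulated data. The members and gene lists were chosen with earlier results of these data known. The rule named, per side, the 15 largest changes, the 10 with the smallest largest p, called list members, genes that differ among treated groups, the widest gaps and a panel. The following were named after their values were seen: Afp, Amacr, Cad, Ccl11, Ccl12, Ccl9, Ccnb2, Cdk1, Cdt1, Chil3, Clec4d, Cpa3, Ctsl, Folr2, Foxk2, Gart, Gemin5, Golt1a, Jun, Kif20a, Klf2, Lect2, Lgals3, Lss, Mad2l1, Mcm4, Mcpt1, Mcpt4, Mrc1, Orc5, Osmr, Pfas, Prim1, Rfc3, Rpa1, Sqle, Tnfrsf9 and Tug1. Promoters are from RefSeq on GRCm38.p6. Alternatives changed the probe set, filter, normalization, weights, covariates, groups and tumours. The number of arrays limits the precision.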

Additional observations from a re-analysis of the deposited data

Results flagged for a closer look

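In 23 of 348 groups of named genes and quality measures, 1 tumour lay far from the others of its group, where chance gives about 1 in 20. Only Placebo, Cabozantinib and the combination were examined. Anti-PD1, with 3 tumours, was left out, so the absence of its tumours here is not a result. Each value is a log2 signal, followed by the range of the other tumours of its group. Cabozantinib replicate 3 was high for Wfs1 (8.20; 7.14 to 7.43), Kif1b (8.17; 7.73 to 7.85) and Ctsl (12.62; 12.38 to 12.44). It was low for Kcnj8 (7.35; 7.86 to 7.98), Ddc (6.84; 7.88 to 8.08) and Cad (7.23; 7.47 to 7.52), and each of these 6 values lay farther from Placebo than the rest of its group. Cabozantinib replicate 4, 1 of the tumours high in muscle genes, was high for Cxcl2 (11.49; 8.87 to 9.46), Csf3r (7.43; 6.09 to 6.45), Nfkbia (10.95; 10.50 to 10.63) and Mcpt1 (4.12; 3.52 to 3.68), and low for H2bc4 (9.81; 10.08 to 10.19) and Rgs5 (9.85; 10.38 to 10.56). Cabozantinib replicate 2 was low for Arg1 (10.41; 11.66 to 12.14).

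Among Placebo tumours, replicate 1 was low for Amacr (7.27; 7.86 to 7.90), and replicate 2 was low for Cpa3 (5.87; 8.49 to 9.01) and for the array median (4.92; 5.03 to 5.05). Placebo replicate 3 was high for S100a9 (8.54; 7.18 to 7.40) and Kif20a (8.999; 8.53 to 8.61), and replicate 4 for Folr2 (7.93; 5.88 to 6.20) and Apold1 (7.004; 6.48 to 6.56). In the combination, replicate 2 was high for Klf2 (9.16; 8.71 to 8.76), and replicate 4 was high for Mcpt2 (4.59; 3.94 to 4.03), below the array medians, and low for Tnfrsf9 (8.43; 9.36 to 9.55).

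The 3 treated groups differed from each other in 13 named genes by limma's F test. The adjusted p values were 4.83e-06 for Esm1, 0.000212 for Gpihbp1, 0.000665 for Apold1, 0.00357 for Trp53i11, 0.0106 for Kdr, 0.0114 for Kit, 0.0223 for Rgs5, 0.0249 for Ppp1r3b, 0.0327 for Cpa3, 0.0341 for Slc2a1, 0.0357 for 2900076A07Rik, 0.0396 for Cldn4 and 0.0449 for Gclm.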

How the results depend on the processing

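The direction of the 112 called genes was kept in every one of the 30 alternatives, except that 111 of 112 kept it with the probe set of largest variance, and 8 of the 112 were not measured among bright genes alone. Because these genes were selected on the same tumours, kept signs are no separate check. The number of calls was not stable. Against 30 higher and 82 lower genes, the alternatives gave 1 and 3 with the 12 treated tumours as 1 group, 147 and 325 leaving out the Anti-PD1 mean, 556 and 881 leaving out the Cabozantinib mean, and 0 and 0 leaving out the combination mean (limma; 790 and 1435 at an unadjusted p under 0.05). They were 49 and 126 with the mean over all probe sets, 13 and 25 with the most variable probe set, 126 and 305 with only genes above the highest array median, 46 and 141 with trend and robust moderation, 451 and 839 with array weights, 7 and 10 with the title number as a random block, and 0 and 2 with the labelling controls as a covariate (limma; 774 and 1467 unadjusted). Without 3 tumours high in muscle genes they were 13 and 34, and without 5 high in muscle or adipocyte genes 3 and 2. Leaving out 1 tumour gave 0 to 184 higher and 0 to 482 lower. Quantile normalization gave 31 and 57. No alternative gave a gene in all 3 single comparisons by the largest p. The 513 genes differing among the treated groups became 821 with bright genes, 2556 with array weights, 1741 with the covariate, 170 without the 3 tumours, 34 without the 5, and 89 to 2081 without 1 tumour. The 19 and 59 genes with no overlap became 41 and 102 without the 3 tumours, 97 and 184 without the 5, and 20 to 128 and 61 to 387 without 1 tumour, and the 19 became 11 with bright genes. Except where fewer tumours or genes were used, the cause was not tested. The title number, shared by 3 pairs of tumours across groups and 1 pair within Cabozantinib, was fitted only as the random block above, with an estimated correlation of -0.103 between tumours that share it, and its meaning is not given.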

Other observations

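Several gene lists not described above lay near Placebo as a whole. Over all genes, 46.7% had a positive difference and 22.9% an unadjusted p under 0.05. Type I interferon response genes, which signal viral or nucleic acid sensing, had 12 of 16 positive differences and a median of 0.18, with 0.48 in Anti-PD1, -0.27 in Cabozantinib and -0.040 in the combination. Of these 16 genes 0 passed by limma in the treated tumours, 2 had an unadjusted p under 0.05, and 6 differed among the treated groups by the F test. Over all genes 3% differed by that test. The list's mean deviation was 0.87, 0.46 and 0.62 in the Anti-PD1 tumours and at most 0.21 in Placebo. The 15 genes of the interferon gamma response and antigen presentation had a median of 0.12, and 0 passed by limma and 1 had an unadjusted p under 0.05. The 16 genes of unfolded protein and amino acid stress had a median of -0.032, and 5 had an unadjusted p under 0.05.

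Ribosomal protein genes had small differences, mostly in 1 direction. Over all genes, 53.3% had a negative difference and 22.9% an unadjusted p under 0.05. Of the 18 cytosolic ribosomal protein genes 17 were negative, with a median of -0.062 against -0.012 over all genes, 3 had an unadjusted p under 0.05 and 0 passed by limma. Their mean deviation was below every Placebo tumour in 9 of 12 treated tumours. Of the 24 genes of the mitochondrial respiratory chain 18 were negative, with a median of -0.058, 6 had an unadjusted p under 0.05 and 0 passed by limma. The p53 targets were negative in 10 of 13, with a median of -0.14, 4 with an unadjusted p under 0.05 and 0 past limma's adjusted threshold.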
